A study of Mus musculus with 6 samples.

Results

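The erythroid-rich and erythroid-poor zones described here are the ends of a ranking of small squares in 1 section of a mouse spleen after phenylhydrazine (PHZ). Cells were placed in squares of 50 µm by the centre of each cell, and the 2600 squares with 10 or more cells were ranked by a score, the percentage of all gene counts of the square that came from Slc4a1, Hemgn, Rhd and Klf1. The ranking was cut into 4 bands of 650 squares. Squares of both zones were thus chosen by measured counts: the top band, with 23822 cells, is called erythroid-rich, and the bottom band, with 28406 cells, erythroid-poor, while bands 2 and 3 lie between them in rising order of the score. Together they are 1300 of the 10993 squares of this size and filling in the 6 sections of the series.

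The series used Xenium, an in situ method that detects single RNA molecules of a fixed gene panel on a tissue section, on fetal liver, bone marrow and spleen of mice. The spleen described here came from an adult wild-type C57BL/6 mouse that had 40 mg/kg PHZ by intraperitoneal injection, 2 injections per day for 2 days, and it was cut as a 5 µm section of paraffin-embedded tissue. An untreated spleen of an adult wild-type mouse on the same slide was put through the same rule for comparison. Untreated here means without PHZ: its labels name it only as WT, while the methods speak both of normal spleens and of vehicle injections, so whether this mouse received vehicle is not settled. Each condition is 1 section of 1 spleen, so squares are not replicates, no test of a difference was possible, and intervals cover counting error only. Every level given for the zones comes from the same cells as the score and is a description of the squares it chose.

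PHZ lyses red cells, and the mouse spleen answers the resulting anaemia by making new red cells in its red pulp. Erythroblasts there divide, load heme and hemoglobin, expel their nuclei and stand in close contact with macrophages that take up the expelled nuclei and recycle iron, an arrangement known as an erythroblastic island. The white pulp holds T cells around arterioles and B cells in follicles, and is bordered by the marginal zone with its own macrophages. Slc4a1 encodes the anion exchanger band 3 of the red cell membrane, Hemgn a nuclear protein of blood cell precursors, Rhd the Rhesus blood group protein, and Klf1 a transcription factor that turns on globin and other erythroid genes.

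The PHZ section held 94582 cells and 11430388 gene transcripts, with a median of 104 per cell, and the untreated section 108338 cells and 10351683 transcripts, with a median of 84 per cell. All 477 genes of the panel were counted in both. No probe of the negative controls reached more than 77 counts in either section. Levels are given as CPM, the count of a gene per 1000000 gene counts of the zone.

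The score was unevenly spread, with limits between the 4 bands at 2.44%, 9.76% and 13.1%. Its median was 14.7% of gene counts in rich squares, which ran from 13.1% to 22.0%, and 0.245% in poor squares, which ran from 0% to 2.44%. The last square inside the rich zone had 13.129% and the first outside it 13.126%, and the corresponding poor squares had 2.439% and 2.443%, so neither limit falls at a gap in the ranking. Summed over each zone, Slc4a1 had 69097 CPM in rich and 2049 CPM in poor squares, Hemgn 40199 and 1014 CPM, Rhd 22686 and 407 CPM, and Klf1 17245 and 871 CPM. These 4 genes chose the squares, and their levels only describe the choice.

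Rich and poor squares lay apart as patches. Of the side-by-side neighbours of rich squares 56.9% were rich and 0.837% poor, where each band is 25% of all kept squares. Of the neighbours of poor squares 83.3% were poor and 0.853% rich. The poor zone fell into 38 patches, the largest of 298 squares or 0.745 mm2, whereas the rich zone fell into 98 patches, the largest of 54 squares or 0.135 mm2. Poor tissue was a few large fields and rich tissue many small ones, with bands 2 and 3 between them: the median distance from a rich square to the nearest poor one was 180 µm. Cell outlines cross the borders of squares, and these shares describe 1 section only.

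**Figure D1:**
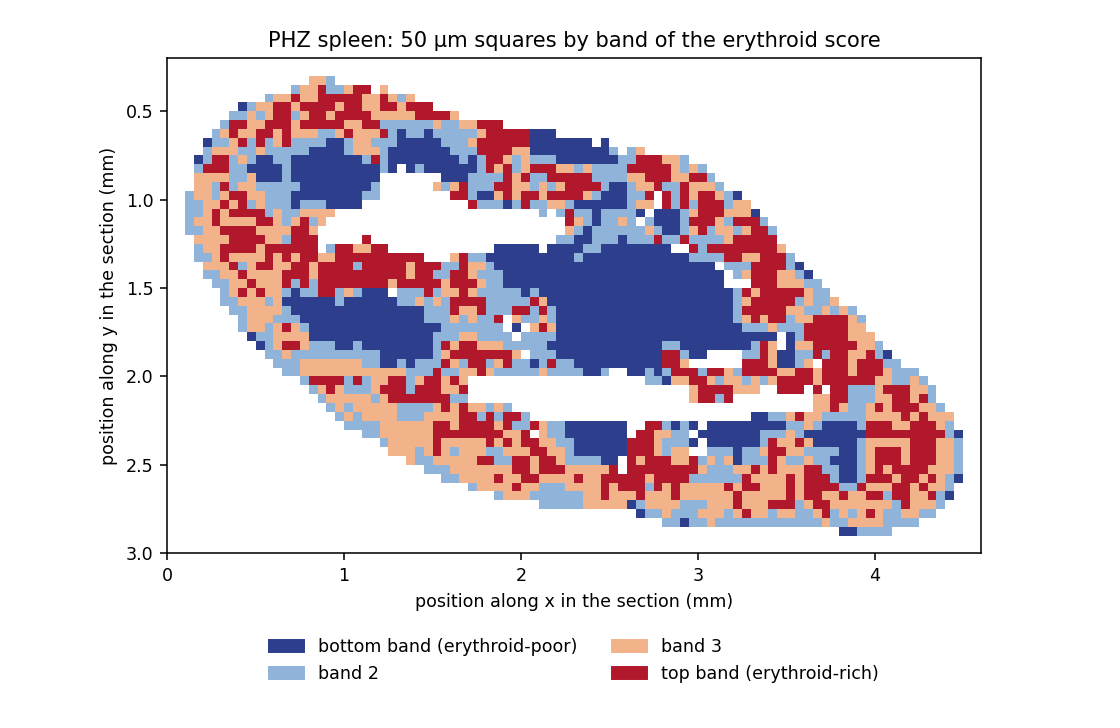
Map of the 2600 kept squares of the PHZ spleen, coloured by band of the erythroid score, with position along x and y of the section in mm. The bottom band (dark blue) forms large fields, the largest of 298 squares, and the top band (red) many smaller patches, the largest of 54 squares; white areas inside the outline hold no square with 10 or more cells.

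The poor zone was mixed. Of its 650 squares, 492 were among the 650 squares of the section with the highest share of T cell and B follicle genes (a share of 1.46% or more), which is 75.7% of the poor zone, while 12 of the 650 rich squares were. The remaining 158 poor squares held on average 19.0 ± 6.33 cells (SD over squares) against 51.6 ± 20.2 in the lymphoid poor squares, and the mean cell area was 127 µm2 against 47.8 µm2. Hbb-bt, an adult beta globin gene, stood at 15874 CPM in the non-lymphoid poor squares and at 4348 CPM in the lymphoid ones. Genes of stroma and smooth muscle summed to 103316 and 85568 CPM in the same order. T cell genes, which with the B follicle genes defined this split, summed to 36971 CPM in the lymphoid and 3986 CPM in the other poor squares. Of single genes outside the split, S100a9, a calcium-binding protein of neutrophils, had 1473 CPM in the lymphoid and 4212 CPM in the other poor squares. The neutrophil list as a whole summed to 31665 and 34468 CPM in that order. Saa3, an acute phase protein, had 1174 CPM in the lymphoid and 3316 CPM in the other poor squares. The text below treats the poor zone as 1 group unless it says otherwise. The folds depend on its make-up, and each erythroid list is also given without the lymphoid squares. For this the 25% of squares of the section richest in T cell and B follicle genes was left out, and the remaining squares were ranked anew, 487 in each zone. The poor squares of that ranking were the 158 non-lymphoid ones and squares of band 2, which were the larger part. Erythroid folds are therefore smaller there partly by construction: Hbb-bt had 33178 CPM in its poor squares, against 15874 CPM in the 158.

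Cells were fewer and larger in outline in the rich zone. Rich squares had from 10 to 67 cells with a median of 38, and a mean of 36.6 ± 10.7 (SD over 650 squares). Poor squares had from 10 to 93 with a median of 43, and a mean of 43.7 ± 22.7. The ratio of means, rich over poor, was 0.839 (95% interval from counting 0.824 to 0.853), and a rich square had more cells than a poor one in 42.9% of all pairs, but poor squares were spread more widely: the middle 50% of them had from 21 to 64.75 cells, and the middle 50% of rich squares from 30 to 44. Across all 2600 squares Pearson's r between score and cell number was -0.13 and Spearman's rho -0.01, given as a description because squares share a section. The mean outlined area of a cell was 67.2 ± 45.9 µm2 (SD over cells) in rich and 56.2 ± 51.6 µm2 in poor squares, a ratio of 1.20.

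Outlines in these files are nuclei expanded until they meet a neighbour or a limit, so the area of a cell follows the spacing of nuclei. They covered 98.5% of the area of rich and 98.2% of poor squares, and density multiplied by mean area gave a ratio of 1.00 between zones. The direction of both measures depended on which poor squares were counted. Without the lymphoid squares, rich squares had 1.64 times the cells of poor squares and 0.616 times the cell area, and in the left part of the section the ratios were 1.023 and 0.977.

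Over all cells, nuclei were on average larger in the rich zone, and this held without the lymphoid squares. The mean nucleus area was 25.5 ± 11.7 µm2 in rich and 22.1 ± 10.9 µm2 in poor cells (SD over cells), a ratio of 1.16, and the mean of a rich square was above that of a poor one in 74.7% of pairs. The ratio stayed above 1 under each alternative that changed the squares or cells, lowest at 1.06 without the lymphoid squares. In the untreated spleen the same ratio was 0.992. When cells of the PHZ spleen were split by counts of the score genes, which also chose the zones, the order was the reverse in both parts. Nuclei of cells with 3 or more score counts averaged 26.1 µm2 in the rich and 28.9 µm2 in the poor zone. Those of the other cells averaged 16.5 and 21.8 µm2. A limit on counts also sorts cells by depth. The median number of transcripts was 124 in the rich and 152 in the poor zone for cells past the limit. For the other cells it was 38 and 72. The parts are therefore not matched kinds of cell. Cells with 3 or more score counts were 93.9% of rich and 3.27% of poor cells. The median number of transcripts per cell was 119 in the rich and 73 in the poor zone, but it was 70 in the lymphoid and 124.5 in the other poor squares, so the direction depended on which poor squares were counted.

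**Figure D2:**
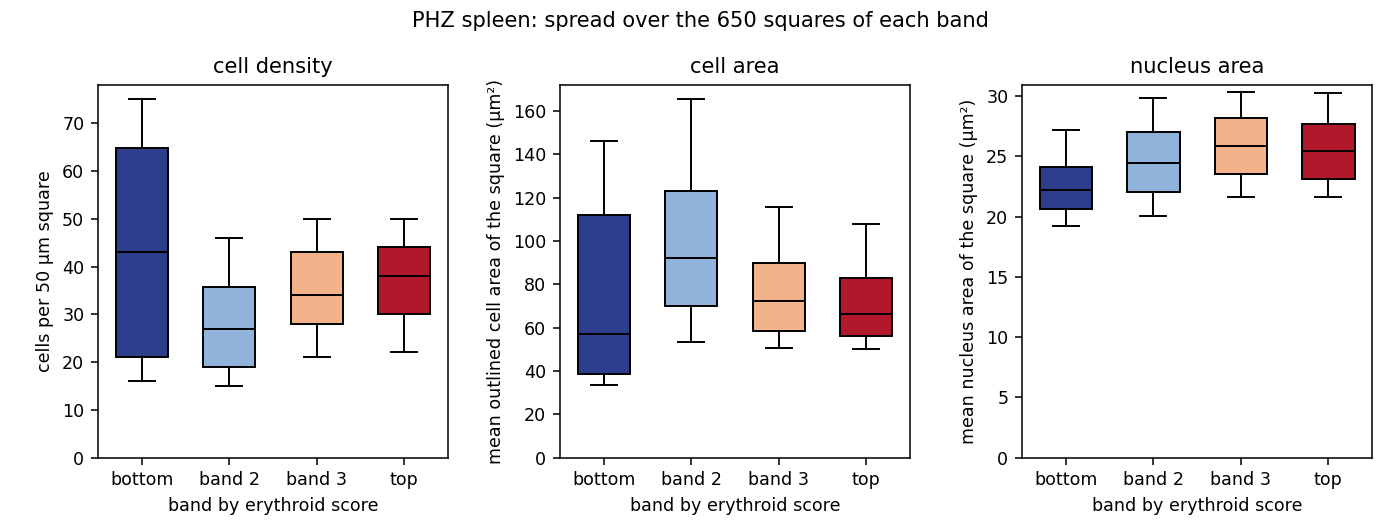
Cells per square, mean outlined cell area and mean nucleus area of the squares in the 4 bands of the score in the PHZ spleen (650 squares each; line, median; box, middle 50% of squares; whiskers, from 10% to 90% of squares). The bottom band is the widest in density and area, band 2 has the fewest cells (median 27), and nucleus area is lower in the bottom band (median 22.2 µm2) than in the top band (25.4 µm2).

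Of the 473 genes outside the score, 275 had 500 or more counts over both zones and were compared. At 1.5-fold in CPM, 32 were higher in rich squares (11.6% of those compared) and 223 lower (81.1%), and 20 lay between. The typical gene was lower in rich squares, and the median log2 fold of the 275 genes was -2.00. The 29 genes of the erythroid and cell division lists made up 67.4% of gene counts in the rich zone and 7.03% in the poor zone. Per cell the median was -1.53, with 39 genes higher (14.2%) and 202 lower (73.5%). As a share of the counts outside those 29 genes it was -0.48, with 67 genes higher (24.4%) and 126 lower (45.8%). Without the lymphoid squares the median in CPM was -1.74, with 27 genes of 224 higher and 181 lower. Those 224 had 500 or more counts in that ranking. Lists and named genes are given there by their counts in the full ranking, so some fall below that limit. Medians of lists and of all genes there thus rest on unlike sets of genes. Folds below are of CPM unless another scale is named, and the counts and medians of lists are to be read against these values over all genes.

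The genes of red cell maturation were far higher in the rich zone. Of the 10 globin, membrane and late red cell genes, 9 had enough counts (Asb9 did not) and all 9 were higher, with a median log2 fold of 3.41. Hbb-bt ran from 47209 to 167568 CPM over rich squares with a median of 66869, and from 0 to 86050 CPM over poor squares with a median of 4088. A rich square exceeded a poor one in 99.6% of pairs, and the zones differed by 3.41 on the log2 scale. Plek2, which encodes a pleckstrin family protein of late erythroblasts, had medians of 8912 and 195 CPM and a log2 fold of 4.97 (95% counting interval 4.87 to 5.08). Aqp1, the water channel of the red cell membrane, had a log2 fold of 4.02, and Car2, which encodes carbonic anhydrase 2, one of 3.68. The smallest fold of the list was that of Selenbp1, at 1.23. All folds of the list were smaller without the lymphoid squares, in a ranking whose poor squares reached into band 2. There 7 of the 9 were past 1.5-fold, with a median of 1.15. Hbb-bt was at 1.03, Plek2 at 1.75 and Hk1, a hexokinase, at 0.53, and Selenbp1 turned to -0.15.

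Genes of heme synthesis moved with them. All 4 members were higher, with a median log2 fold of 3.40. Fech, which inserts iron into the heme ring as the last step, stood at 54303 and 5373 CPM, and Slc25a37, the iron importer of mitochondria, at 40109 and 3626 CPM. Isca1, a member of the iron-sulfur cluster machinery that many cell types use, differed least, by 1.97 on the log2 scale. All 4 were still past 1.5-fold without the lymphoid squares, with a median of 1.47.

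Receptors and early genes were divided. Of 7 members, 5 were higher and none lower, and the median log2 fold was 2.63. Epor, the receptor for erythropoietin, stood at 12598 CPM in rich and 780 CPM in poor squares, with a log2 fold of 4.01. Gata1, the erythroid transcription factor, had 12447 and 718 CPM. Tfrc, the transferrin receptor, which brings iron into the cell, had 23842 and 3839 CPM, and Ctse, which encodes the protease cathepsin E, 53358 and 3610 CPM. Kit, the receptor for stem cell factor found on progenitors and early erythroblasts as well as on mast cells, differed by less than 1.5-fold: 1496 CPM in rich and 1451 CPM in poor squares, a log2 fold of 0.04 with a counting interval of -0.02 to 0.11. This level reading joined unlike squares, with Kit at 1303 CPM in the lymphoid and 2202 CPM in the other poor squares, and it was highest in band 2, at 2852 CPM. Kit was lower in rich squares, at -1.04, without the lymphoid squares, in a ranking whose poor squares came mostly from band 2. Ndufa4l2, the other member below 1.5-fold, had a log2 fold of 0.50. Of the 7, 4 were higher and Kit lower without the lymphoid squares, with a median of 1.13, and Podxl, which encodes podocalyxin, was at 0.25 there against 2.31.

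Genes of cell division were higher as well. All 4 were past 1.5-fold, with a median log2 fold of 2.86. Ube2c, a ubiquitin-conjugating enzyme of mitotic exit, stood at 14557 and 1210 CPM, and Cenpf, a kinetochore protein, at 5542 and 685 CPM. Stmn1, a microtubule regulator that dividing lymphocytes also express, differed least, by 1.11, and it was the 1 gene of the list below 1.5-fold without the lymphoid squares, at 0.37, when the median of the list was 1.41.

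Outside these lists, 10 genes were also higher in the rich zone. Prx had the largest fold of all genes compared, 5.03 on the log2 scale. It encodes periaxin, known from the myelin sheath of peripheral nerves, and its median was 18314 CPM over rich and 252 CPM over poor squares. Mylk3, a myosin light chain kinase known from heart muscle, had 4085 and 242 CPM, and Tspan8, a tetraspanin of the cell surface, 4402 and 301 CPM. Gfap, the intermediate filament of astrocytes, had 1595 and 239 CPM, a log2 fold of 2.74. All 4 were also higher in the rich squares of the untreated spleen at 1.5-fold or more, Prx by 4.14 and Gfap by 1.12. The panel gives 1 reading per gene, and whether these probes also bind another transcript was not tested.

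Promoter sequence is shown for genes that were higher together in the rich zone, since Gata1 was one of them and its protein binds a motif with the core GATA. The letters searched were AGATAA on both strands, in the promoters listed by RefSeq (GRCm38.p6), from 250 bases before to 50 after the start of a gene. Of the 36 genes past 1.5-fold with the score genes included, 25 were listed and 5 of these held the letters (20%), against 15.2% of the listed genes of the panel, 13.8% of those that were lower and 12.7% of all genes in the table. Rhd, a score gene, is one of the 5. The matches at least 12 bases inside the stretch before the start are printed 5′ to 3′ on the gene's strand for 3 of them, with the motif in capitals (TTATCT is AGATAA on the other strand). Mylk3 also held such matches, 50 and 100 bases before its start, which are not printed. A match of letters is a description and not a bound site.
Rhd, chr4:134864481-134864510, plus strand: cccggcagcctgAGATAAgacctttggcgg
Epor, chr9:21963613-21963642, minus strand: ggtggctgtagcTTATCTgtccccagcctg
Isg20, chr7:78914190-78914219, plus strand: aggtggcactggAGATAAtgggcagggctc

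**Figure D3:**
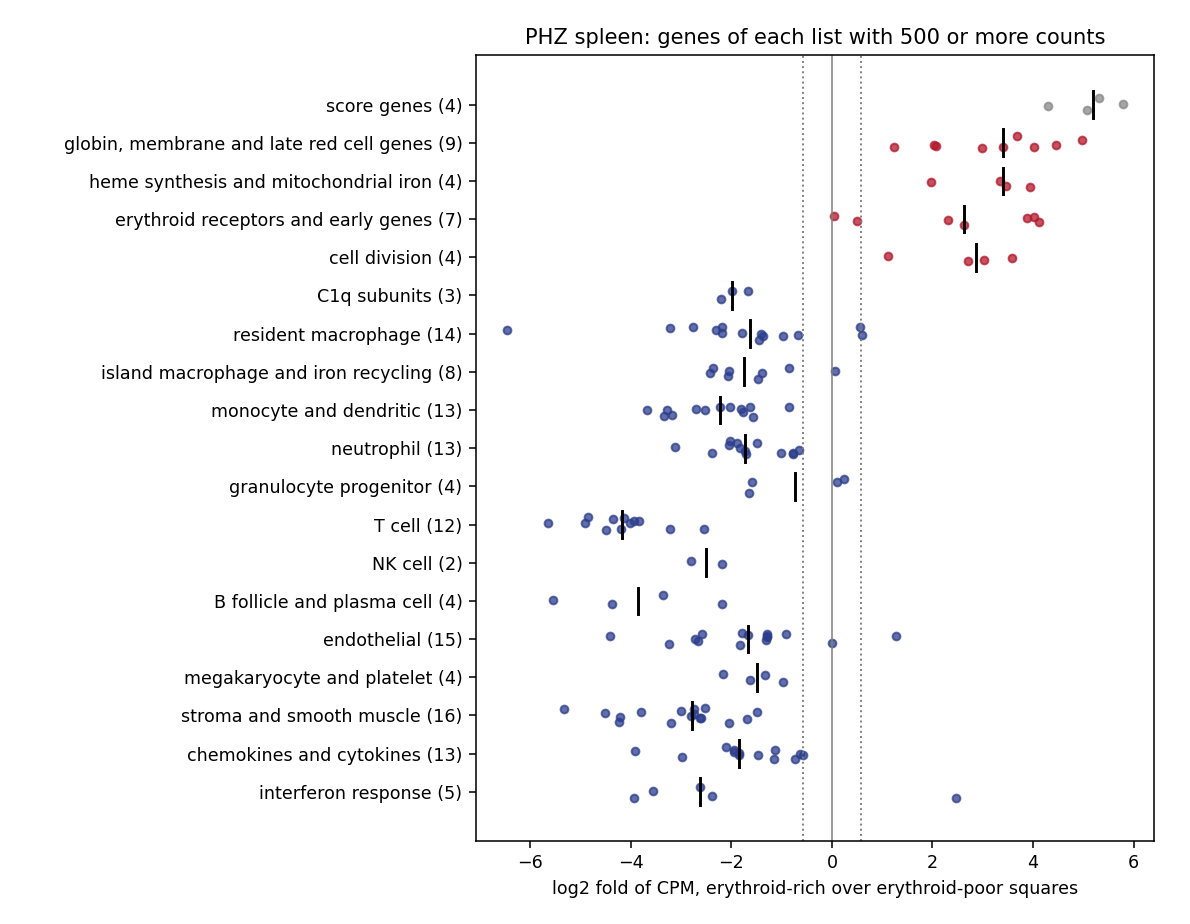
Log2 fold of CPM, erythroid-rich over erythroid-poor squares of the PHZ spleen, for each gene of 19 lists with 500 or more counts (number in brackets; bar, median of the list; dotted lines, 1.5-fold either way; grey, the score genes, which chose the squares). The erythroid and division lists lie to the right and all others have their median to the left, the T cell list farthest at -4.17.

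The T cell and B follicle lists had the lowest medians of all lists in CPM. All 12 T cell genes were lower in rich squares on each of the 3 scales, with a median log2 fold of -4.17 against -2.00 for all genes compared. Cd4, a co-receptor of helper T cells also found on some myeloid cells, had 5307 CPM in poor and 176 CPM in rich squares. Cd3e, a chain of the T cell receptor complex, had 5294 and 183 CPM, and Foxp3, the factor of regulatory T cells, 1393 and 27.7 CPM. Without the lymphoid squares all 12 were still lower, with a median of -1.15, but those squares were removed for their counts of these same genes and the B follicle genes, so that smaller folds of both lists follow from the removal. All 4 genes of the B follicle and plasma cell list were lower on each scale, with a median of -3.87, and of -1.50 without the lymphoid squares. Cxcr5, the receptor that brings B cells into follicles, had 3787 and 80.5 CPM, and Cxcl13, its ligand made by follicular stroma, 8593 and 414 CPM. The median rich square held 0 counts of Cxcr5, Cd3e, Cd4 and Foxp3. Cells with 3 or more counts of the T cell list were 35.1% of poor cells and 1.87% of rich cells, and 25.2% and 0.892% after each cell was thinned to 50 transcripts, which left out 7372 shallower cells of the poor and 2860 of the rich zone. Of the 446 such cells in the rich zone, 88.3% also had 3 or more counts of the score genes, against 1.13% of those in the poor zone. Of all cells, 93.9% in the rich and 3.27% in the poor zone had as many. Whether the score counts in cells with T cell counts were transcripts of adjoining cells was not tested.

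Stroma was lower in the same squares. All 16 compared genes of stroma and smooth muscle were lower in CPM and per cell, and 13 of them as a share of the counts outside the 29 erythroid and division genes. The median log2 fold was -2.78. Leaving out the lymphoid squares, 15 were lower, with a median of -2.59, and Rgs5, a marker of pericytes, turned from -3.00 to 0.96. Col1a1, a collagen chain, had 14373 CPM in poor and 2480 CPM in rich squares, and Myh11, the smooth muscle myosin, 2909 and 155 CPM. Mfap4, a microfibril protein, was lowest in the list at -5.33. Thbs4, a thrombospondin of the matrix, had 658 and 11.4 CPM, and was among the 10 lowest of all genes. So were Dsc3, a desmosomal cadherin, with 563 and 11.4 CPM, Insm1, a zinc finger factor known from endocrine cells, with 358 and 13.0 CPM, and F3, tissue factor, with 724 and 29.3 CPM. Insm1 kept its direction without the lymphoid squares but was below 1.5-fold there.

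The 3 C1q subunits, C1qa, C1qb and C1qc, which macrophages make, were lower in the rich zone as a share of counts. C1qb ran from 1686 to 52758 CPM over poor squares with a median of 23688, and from 0 to 22305 CPM over rich squares with a median of 7132. The ranges overlapped, and a rich square exceeded a poor one in 4.73% of pairs. The log2 folds were -2.21 for C1qa, -1.67 for C1qb and -1.98 for C1qc, close to the median of all genes compared (-2.00). Per cell they were -1.75, -1.21 and -1.52. As a share of the counts outside the 29 erythroid and division genes they were -0.70, -0.16 and -0.47, so on that scale only C1qa was past 1.5-fold.

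The summed level of the subunits was 51942 CPM in the lymphoid and 55492 CPM in the other poor squares, and 27331, 19826 and 14320 CPM in bands 2, 3 and 4. Outside the 29 genes it was 56500 per 1000000 in the bottom band, then 44415, 46458 and 43886. Without the lymphoid squares all 3 were still lower, with a median of -1.45 against -1.74 for all genes. Cells with 3 or more C1q counts were 45.1% of poor and 23.3% of rich cells, or 19.7 and 8.55 per square. After thinning to 50 transcripts per cell the shares were 38.1% and 8.52%, a scale on which erythroid transcripts displace others.

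Macrophage genes did not move as a block. Of the 15 genes of the resident macrophage list, 14 were compared (Clec4f had too few counts). In CPM 12 were lower and Cd5l was higher, with a median of -1.62, and outside the 29 genes 6 were lower and 3 higher. Timd4, a receptor for phosphatidylserine on dying cells, had the largest fall of all genes compared, from 1993 CPM in poor to 22.5 CPM in rich squares, and it was concentrated in the lymphoid poor squares (2251 CPM against 688 CPM in the others). Siglec1, the receptor of metallophilic macrophages at the edge of the white pulp, had 1077 and 115 CPM, and Marco, a scavenger receptor of the marginal zone, 9174 and 2012 CPM. Neither was concentrated in the lymphoid poor squares. Siglec1 had 1076 CPM in these and 1083 CPM in the other poor squares, and Marco 8268 and 13754 CPM. Aif1 and Folr2 were lower by 2.77 and 2.31 on the log2 scale.

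Cd5l and Cd163, both known from red pulp macrophages, were the 2 of the 14 not 1.5-fold lower. Adgre1 and Mrc1, also found on red pulp macrophages, were lower by 0.98 and 0.67 on the log2 scale, though Mrc1 was at -0.21 per cell and 0.84 outside the 29 genes, so its direction depended on the scale. Cd5l had 3771 CPM in rich and 2494 CPM in poor squares, and was highest in band 3 at 4735 CPM. In poor squares it had 2244 CPM in the lymphoid and 3760 CPM in the other ones, the latter level with the rich zone, and without the lymphoid squares its log2 fold was 0.09. Cd163, the receptor for hemoglobin bound to haptoglobin, had 253 and 170 CPM, a log2 fold of 0.57, which became -0.15 when only transcripts over a nucleus were counted and was 0.74 without the lymphoid squares. Per cell both were past 1.5-fold, at 1.06 and 1.03. Among cells with 3 or more C1q counts, Cd5l averaged 1.36 counts per cell in the rich and 0.443 in the poor zone, and Timd4 0.00540 and 0.356. Spic averaged 0.555 and 1.20 counts in the same order, Slc40a1 3.79 and 4.70, Mrc1 0.889 and 0.693, and Adgre1 0.250 and 0.229. Vcam1 averaged 0.916 and 2.38, Marco 0.689 and 1.71, and Cd163 0.0968 and 0.0258. C1qb itself averaged 3.21 and 4.65, so these cells also differed in C1q counts between the zones. Such cells in the rich zone drew 60.0% of their transcripts from the 29 erythroid and division genes, against 6.17% in the poor zone. Over all counts of the zones these genes made up 67.4% and 7.03%. Among the cells with C1q counts 95.6% and 4.15% had 3 or more score counts, close to the shares of all cells, 93.9% and 3.27%. Whether erythroid transcripts in cells with C1q counts were RNA of adjoining erythroblasts or of engulfed material cannot be told apart.

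Genes tied to erythroblastic islands and iron recycling were mostly lower, as most genes were. Of 8 members 7 were lower in CPM, where 81.1% of all genes were, with a median log2 fold of -1.76 against -2.00. Outside the 29 genes 2 were lower and 2 higher, with a median of -0.24 against -0.48. Leaving out the lymphoid squares, 7 were lower, with a median of -1.06 against -1.74 for all genes, and Vcam1 stood at -1.21, the growth factor Igf1 at -1.03 and the cytokine Il18 at -1.21. Vcam1, the adhesion molecule by which macrophages hold erythroblasts, had 13760 CPM in poor and 2562 CPM in rich squares, and 14649 CPM in the lymphoid and 9264 CPM in the other poor squares. Spic, a transcription factor of red pulp macrophages, had 7088 and 1689 CPM. Slc40a1, the iron exporter ferroportin, had 26935 and 14904 CPM, a log2 fold of -0.85 that was -0.39 per cell and 0.66 outside the 29 genes, so its direction depended on the scale. Dnase2a, the enzyme that degrades the DNA of engulfed nuclei, had 4511 CPM in rich and 4341 CPM in poor squares, and a log2 fold of 0.51, below 1.5-fold, without the lymphoid squares.

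Myeloid genes were lower in the rich zone, as most genes were. All 13 monocyte and dendritic genes were lower, with a median of -2.23, led by Ms4a6b at -3.69 and Cybb, a subunit of the phagocyte oxidase, at -3.35. All 13 neutrophil genes were lower, with a median of -1.73. Leaving out the lymphoid squares, the medians were -1.83 and -2.19, against -1.74 for all genes. Ms4a6b and Cybb stood at -2.13 and -1.83 there, and the neutrophil genes S100a9 and Mmp8 at -2.19 and -1.75, against -0.78 each with all squares. Outside the 29 genes 7 monocyte and dendritic genes were lower and 1 higher, with a median of -0.72 against -0.48 for all genes. On that scale 2 neutrophil genes were lower and 3 higher, with a median of -0.22. The neutrophil list summed to 32128 CPM in the bottom band and 31033 CPM in band 2, then 14485 and 8383 CPM.

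Granulocyte progenitor genes had their peak between the zones. Elane, neutrophil elastase, had 315 CPM in poor and 340 CPM in rich squares but 2604 CPM in band 2 and 1107 CPM in band 3. Mpo, myeloperoxidase, had 323 and 378 CPM at the ends and 2923 and 1216 CPM in between. The comparison of the ends alone, with log2 folds of 0.11 and 0.23, does not show this. Without the lymphoid squares the folds were -2.72 and -2.66, but most poor squares of that ranking came from band 2, where both genes peaked. Elane and Mpo had 2043 and 2179 CPM in those poor squares. In the non-lymphoid poor squares of the bottom band they had 574 and 490 CPM. Prg2 and Cpa3, of eosinophils and mast cells, were lower by 1.65 and 1.59 on the log2 scale, but Prg2 was at -0.18 without the lymphoid squares.

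Endothelial genes were mostly lower, as most genes were. Of the 15 compared 13 were lower, with a median of -1.66, and of -2.07 without the lymphoid squares; outside the 29 genes 5 were lower and 3 higher, with a median of -0.15. Vwf, which endothelial cells and megakaryocytes make, was higher, with 1839 CPM in rich and 763 CPM in poor squares, but level without the lymphoid squares, at 1852 and 1866 CPM. Eng, a co-receptor that early erythroid cells also carry, had 4071 and 4088 CPM, but 3775 and 8360 CPM without the lymphoid squares, a log2 fold of -1.15. Lyve1, of lymphatic and sinus endothelium, had 16.9 and 362 CPM. All 4 megakaryocyte and platelet genes were lower in CPM, by 2.17 for Pf4 and 0.98 for Cavin2, but outside the 29 genes Ppbp and Cavin2 were higher, by 0.17 and 0.53. Both genes of the NK cell list with enough counts, Klra8 and Klrb1c, were lower by 2.80 and 2.20, and stood at -0.60 and -0.75 without the lymphoid squares, where the median of all genes was -1.74.

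All 13 compared chemokine and cytokine genes were lower by 1.5-fold or more in CPM, from -3.93 for Ccl5 (-1.51 without the lymphoid squares) to -0.59 for Saa3 (-1.78). Their median of -1.85 lay close to that of all genes (-2.00), and outside the 29 genes 3 were lower, 3 higher and 7 between. Of the 5 interferon response genes, Epsti1, Psmb8, Gbp5 and Gbp2 were lower, by 3.95, 3.56, 2.63 and 2.38. Leaving out the lymphoid squares they stood at -1.91, -1.89, -1.83 and -2.10. Rsad2, an antiviral enzyme, was higher by 2.47 on the log2 scale, and by 1.27 without those squares. It ran from 3326 to 56911 CPM over rich squares with a median of 19048, and from 0 to 46649 CPM over poor squares with a median of 2122. Rsad2 was higher in each band than in the one before, from 3593 to 10837, 16700 and 19968 CPM.

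**Figure D4:**
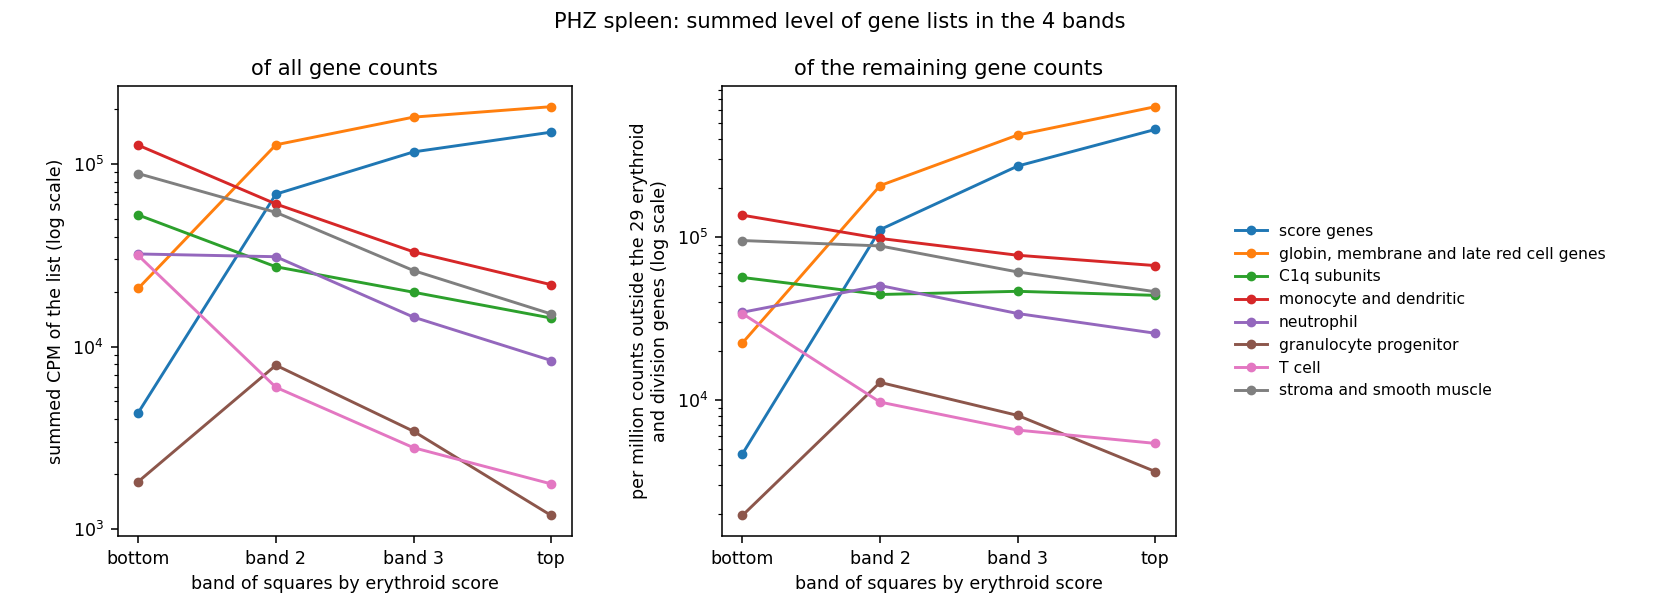
Summed level of 8 gene lists in the 4 bands of squares of the PHZ spleen, from the lowest to the highest erythroid score, as CPM of all gene counts (left) and per 1000000 of the counts outside the 29 erythroid and division genes (right), both on log axes. C1q falls from 52528 to 14320 CPM on the left and from 56500 to 43886 on the right, and the granulocyte progenitor list peaks in band 2 on both.

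The same rule gave different zones in the untreated spleen. Of its 1752 kept squares, 438 were rich and 438 poor, and a rich square there had a median score of 1.35%, below the lower limit of 2.44% for band 2 in the PHZ spleen. Of 290 genes compared 89 were higher (30.7%) and 103 lower (35.5%) in rich squares, and the median log2 fold was -0.10. The rich zone had 51.8 ± 13.99 and the poor zone 65.8 ± 14.9 cells per square, a ratio of 0.787, and the mean cell area was 47.2 and 37.9 µm2. With erythroid and division genes at 13.9% of the counts of its rich squares, CPM there was little shifted by them.

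Erythroid genes outside the score were higher in both spleens, but not all of them. Hbb-bt differed by 5.19 on the log2 scale in the untreated spleen, against 3.41 after PHZ. Plek2 differed by 1.52 against 4.97. After PHZ without the lymphoid squares Hbb-bt was at 1.03 and Plek2 at 1.75. Slc14a1, a urea transporter, and Hk1 were level in the untreated spleen, at -0.14 and -0.12, and stood at 2.03 and 2.07 after PHZ, or at 1.15 and 0.53 without the lymphoid squares. Stmn1 and Podxl were at 0.11 and 0.13 there and at 1.11 and 2.31 after PHZ, but at 0.37 and 0.25, below 1.5-fold, without the lymphoid squares. Kit was at 0.10 in the untreated spleen, and after PHZ at 0.04 with all squares and -1.04 without the lymphoid ones. Lymphoid squares were left out only in the PHZ spleen, so the values without them have no like value in the untreated spleen. T cell genes were lower in the rich squares of both spleens, with a median of -1.57 in the untreated section, where 11 of 12 were past 1.5-fold.

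Some macrophage genes went the other way in the untreated spleen. All 3 C1q subunits were higher in its rich squares, 6 of the 8 island and iron recycling genes were higher and none lower, and of 13 resident macrophage genes compared there 5 were higher and 3 lower. C1qb had 23903 CPM in rich and 9003 CPM in poor squares, and its log2 fold was 1.41, with C1qa at 1.11 and C1qc at 1.35. Vcam1 was at 1.42, Spic at 1.47, Slc40a1 at 1.87 and Mrc1, the mannose receptor, at 2.46. Cells with 3 or more C1q counts were 65.2% of rich and 23.9% of poor cells. Of 261 genes compared in both spleens, 52 were 1.5-fold higher in the rich squares of the untreated spleen and 1.5-fold lower in those of the PHZ spleen, none was the reverse, 24 were higher in both and 84 lower in both. These counts are to be read against the shares over all genes compared in each section. In the untreated spleen 30.7% were higher, and after PHZ 81.1% were lower and 11.6% higher. With most genes lower after PHZ, such opposite genes are common and the reverse is rare for genes of any kind. Per cell 42 of the 52 were past 1.5-fold lower after PHZ, and outside the 29 genes 13 were, Vcam1 and C1qa among them. On that last scale 22 of the 52 were above 0 after PHZ, among them Mrc1 at 0.84 and Slc40a1 at 0.66, past 1.5-fold in the same direction as in the untreated spleen. Timd4 and Marco were lower in the rich squares of both spleens, by 2.60 and 1.53 in the untreated one. With 1 section per condition the difference between the spleens could not be tested.

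**Figure D5:**
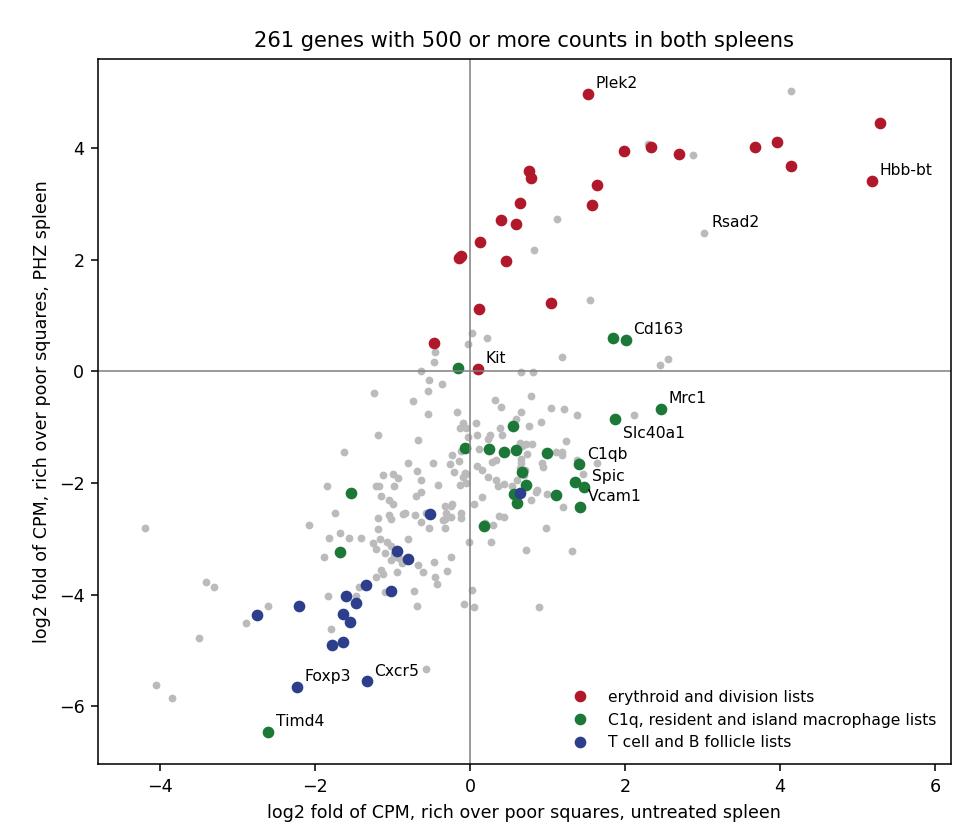
Log2 fold of CPM, rich over poor squares, in the untreated spleen (x axis) and the PHZ spleen (y axis) for 261 genes with 500 or more counts in both. Genes of the C1q, resident and island macrophage lists (green) lie mostly at the lower right, higher in rich squares of the untreated and lower in those of the PHZ spleen, and T cell and B follicle genes (blue) mostly at the lower left.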

How the data were processed

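Xenium counts were used as deposited by the authors: whole transcripts per gene and cell, assigned by the instrument's software (xenium 1.7.1.0), with decoded transcripts kept at a quality score of 20 or more, as the deposited transcript tables give it. Cell outlines are nuclei expanded by that software. Counts rebuilt from the transcripts equalled the deposited totals in both spleens, and 98.3% and 99.4% of such transcripts lay in cells. Counts of each zone were summed in Python 3.11.15 with numpy and scipy, with no filter on cells or doublets. Fold changes are ratios of CPM with exact intervals (95%, counting error only, conditional binomial), called at 1.5-fold among genes with 500 or more counts over both zones. Under the alternatives, list genes and named genes were kept by their counts in the main ranking. The functions for folds and intervals were also run on simulated counts for the untreated section, with the total of the unchanged genes as the base. That run does not cover the shift that erythroid counts bring to CPM. One condition is 1 section, so no test was run. Cells with 3 or more counts of a list were counted as positive, also after thinning to 50 transcripts. The text names the 10 highest and 10 lowest genes and up to 4 genes per list with the largest folds; other names were chosen after their values were seen. The squares, lists and rule were chosen with earlier results of these data known. Alternatives were other squares, scores, regions, totals and nuclear transcripts. The other 4 sections were used only for the count of squares; 1 cell name occurred in both spleens, by naming alone. Values of some genes that the naming rule picks are not reported here.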

Additional observations from a re-analysis of the deposited data

Results flagged for a closer look

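Of the 74 genes named by the rule and past 1.5-fold after PHZ, 16 were lower in the rich squares of the PHZ spleen and past 1.5-fold higher in those of the untreated spleen. Over all 261 genes compared in both spleens 52 were, so the number of named genes does not set them apart from genes at large. Each difference rests on 1 section per condition and was not tested. In the untreated spleen the log2 fold was 1.11 for C1qa, 1.41 for C1qb and 1.35 for C1qc, against -2.21, -1.67 and -1.98 after PHZ. Of the genes of island macrophages and iron recycling, Vcam1 was at 1.42 against -2.43, Spic at 1.47 against -2.07, Igf1 at 0.72 against -2.04 and Il18 at 0.61 against -2.36. The megakaryocyte and platelet genes Pf4, Gng11, Ppbp and Cavin2 were at 0.85, 0.66, 0.67 and 0.76, against -2.17, -1.64, -1.34 and -0.98. The NK cell genes Klra8 and Klrb1c were at 0.99 and 1.00 against -2.80 and -2.20. Fbln5, a protein of elastic fibres, was at 0.89 against -4.23, Sdc1, the plasma cell marker syndecan 1, at 0.65 against -2.18, and Prg2, of eosinophils, at 1.64 against -1.65. Without the lymphoid squares of the PHZ spleen Prg2 was at -0.18, Klra8 at -0.60, Klrb1c at -0.75, Sdc1 at -1.02 and Igf1 at -1.03. Vcam1 and Il18 were at -1.21 each, C1qa, C1qb, C1qc and Spic at -1.66, -1.39, -1.45 and -1.48, and Fbln5 at -2.84. Pf4, Gng11, Ppbp and Cavin2 were lower than with all squares, at -2.21, -2.09, -2.24 and -1.93. As a share of the counts outside the 29 erythroid and division genes, 8 of the 16 were still past 1.5-fold lower after PHZ, led by Fbln5 at -2.72, and Ppbp and Cavin2 changed sign.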

How the results depend on the processing

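No paired analysis was possible because each condition is 1 section. Of 16 alternatives, 3 (the total without 29 genes, the squares without lymphoid areas and the window of 30 to 45 cells) were chosen after seeing the data. All 74 genes named by the rule and past 1.5-fold kept their direction under 15 alternatives, though not all stayed past 1.5-fold. Insm1, Stmn1, Lamp3 and Prg2 fell below it without the lymphoid squares, Cpa3 in the left part of the section and Cavin2 per cell. Outside the rule, Selenbp1 turned to -0.15, Vwf to -0.01 and Rgs5 to 0.96 without the lymphoid squares. The limit of 500 counts was not applied anew to these genes, and Rgs5 was at low levels there. The exception was the total without the 29 erythroid and division genes, under which Ppbp (0.17) and Cavin2 (0.53) turned and 67 genes were higher and 126 lower instead of 32 and 223; 10 more fell below 1.5-fold, C1qb, C1qc and Spic among them. With 50 or more counts as the limit 404 of 462 genes were lower. Cell density, rich over poor, was 0.839, and 0.869 with squares of 100 µm, 0.771 with 20 or more cells, 0.654 for the top and bottom 10%, 0.872 without Slc4a1 in the score, 0.776 in squares with all 8 neighbours and 0.721 in the right part of the section. It turned in the left part (1.023) and without the lymphoid squares (1.64). Mean cell area, 1.20, was 1.22, 1.29, 1.49, 1.15, 1.28 and 1.39 in the same order, and turned to 0.977 and 0.616, and to 0.970 in zone squares with 30 to 45 cells, a window that by construction brings density to 1.026. The cause of the turn between the left and right parts was not tested. Depth limits the 198 genes with fewer than 500 counts, which were not compared.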
